A study of Mus musculus with 6 samples.

Results

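The genes described here encode the ezrin, radixin and moesin (ERM) proteins with their closest regulators and the small GTPases and actin-binding proteins of thin cell processes. They were taken as the rows of the deposited table whose symbol was Ezr, Rdx, Msn, Nf2, Slc9a3r1, Rhoa, Rac1, Cdc42, Pfn1 or Cfl1. All 10 symbols were found, each on 1 row, among the 43383 rows of the table, and all 10 passed the filter on low values that left 13999 rows for testing. The rule uses the symbols alone.

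RNA was sequenced from GFP-positive astrocytes, sorted from somatosensory cortex. The mice were male, 4 weeks old and of the Aldh1l1-eGFP line, in which the promoter of the astrocyte gene Aldh1l1 drives a green fluorescent protein. Upper-layer astrocytes (ULAs) came from layers II to IV and deep-layer astrocytes (DLAs) from layers V and VI, with 1 library of each kind from each of 3 brains and no other treatment in either group. Layer I with the meninges and the corpus callosum had been dissected away, and the cut between the groups cost some tissue of layers IV and V. The study set out to learn how astrocytes of different layers differ in their form and molecular makeup, and the comparison below asks whether the mRNAs of this membrane and actin machinery differed between ULAs and DLAs of the same brain.

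Astrocytes end in very thin sheets and filopodia that wrap synapses and vessels, and these peripheral processes are largely free of the intermediate filaments of the main branches. ERM proteins tie the plasma membrane to cortical actin filaments there, and ezrin is widely used as a marker of peripheral astrocyte processes. An ERM protein is folded shut until it binds a membrane phosphoinositide and a conserved threonine near its end is phosphorylated, so the mRNA level says nothing of its active fraction. Small GTPases such as Rac1 and Cdc42 set where actin filaments form, and profilin and cofilin supply and recycle the monomers.

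Levels are given as RPKM (reads per kilobase of mRNA, scaled to the mapped reads of the library), so that genes of different length can be set side by side. The libraries were 19.7 to 29.6 M reads deep. Most astrocyte markers were abundant, with Aldh1l1 at 203 to 271 RPKM and the glutamate transporter Slc1a3 at 1790 to 2697 RPKM. Gfap was lower, at 10.4 to 28.8 RPKM. It was the 1 of 9 listed that passed the test, as higher in DLAs (log2 difference -0.93, limma adjusted p = 0.0056). Slc1a3 was higher in ULAs in 3 of 3 brains but did not pass (0.42, limma adjusted p = 0.0554). The summed level of 7 neuronal markers was 6.83 to 7.01 RPKM in ULAs and 4.88 to 7.11 RPKM in DLAs, of which Snap25 made 3.47 to 4.99 RPKM, and the other 6 were each under 1 RPKM in every library. The summed level of 8 oligodendrocyte markers, for brains 1, 2 and 3 in turn, was 89.7, 86.6 and 178 RPKM in ULAs and 176, 203 and 279 RPKM in DLAs, and 6 of the 8 passed the test as higher in DLAs.

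None of the 10 genes passed the test of a layer difference, at an adjusted p under 0.05 from limma across the 13999 rows with each brain as a block, against 0.714% of all tested rows called higher in ULAs and 0.914% called higher in DLAs (1.63% in either direction). At an unadjusted p under 0.05, Msn was higher in ULAs and Rac1 was higher in DLAs, so 1 gene of 10 stood in each direction, where 5.64% and 10.8% of all tested rows did. The differences are log2 fold changes of RPKM + 1, ULAs minus DLAs, a scale on which the change of a low gene is understated. Their median over the 10 genes was -0.07, beside -0.03 over all tested rows, and 9 of the 10 lay within 0.5 of 0, as did 95.9% of all tested rows and 96.9% of those with a mean of at least 5 RPKM. Values were also simulated for the same 13999 rows, with 200 rows changed at each size. The test called 0% of rows changed by 0.5 on the log2 scale, 45.5% of rows at 1 and 88.5% at 2. In the real values the pathway gene Grm3 passed at 0.50 (limma adjusted p = 0.0401), so the simulated 0% sets no limit for these data.

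The 10 mRNAs spanned a wide range of levels. Slc9a3r1 and Ezr were the most abundant, with means over the 6 libraries of 280.5 and 279 RPKM, and at ranks 211 and 213 they stood above 98.5% of the tested rows. They could not be ordered, since Slc9a3r1 was the higher in 2 of the 6 libraries. Pfn1 and Cfl1 followed at 154 and 151 RPKM, also without a stable order (Pfn1 higher in 3 of 6), and Cdc42 came next at 114 RPKM. Rac1 and Rhoa both averaged 24.5 RPKM with overlapping ranges, and Rdx lay just below at 20.7 RPKM, under Rhoa in all 6 libraries although their ranges overlapped. Msn and Nf2 were lowest, at 6.41 and 5.61 RPKM, with Msn the higher in 4 of 6 libraries. No ranges overlapped between Ezr and Pfn1, Cfl1 and Cdc42, Cdc42 and Rac1, or Rdx and Msn.

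**Figure D1:**
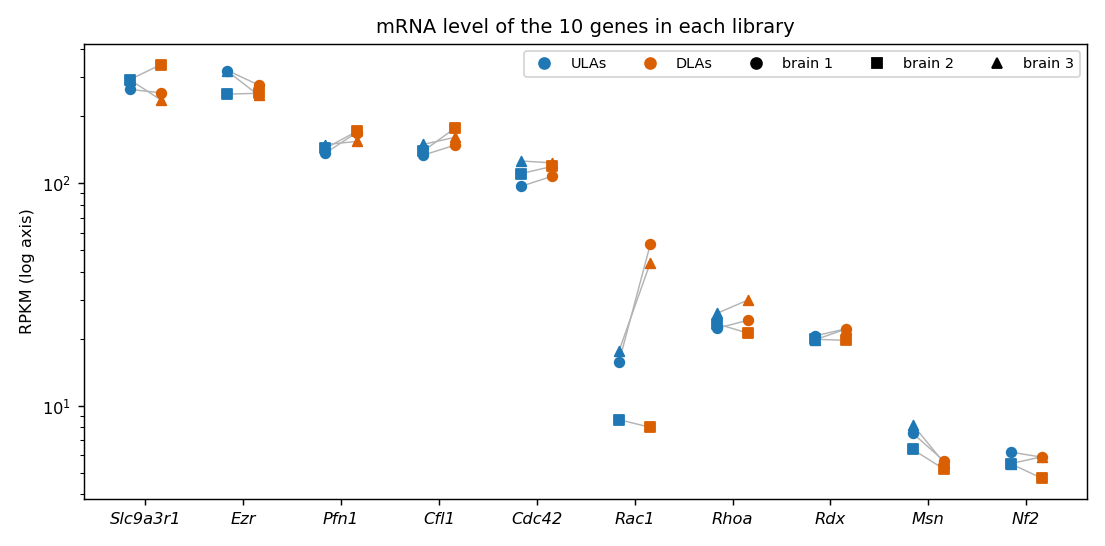
RPKM of the 10 genes (log axis) in each library, in order of their mean; blue points are ULAs, orange points are DLAs, the marker shape gives the brain and a grey line joins the 2 libraries of a brain. Most lines are nearly level, while Rac1 reaches 53.08 and 43.94 RPKM in the DLAs of brains 1 and 3 and stays at 8.0 RPKM in those of brain 2.

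The ERM genes come first. Their regulatory threonine lies in a stretch of the coding sequence that is alike in the 3 genes, and 36 bases of it, as long as a read of this study, are shown because they let a reader see how far a read can tell the paralogs apart. The sequences are from GENCODE transcripts on GRCm38, 5′ to 3′ along the coding strand, with the threonine codon in capitals (codon 567 of Ezr, 564 of Rdx and 558 of Msn).
Ezr: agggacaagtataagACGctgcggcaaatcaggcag
Rdx: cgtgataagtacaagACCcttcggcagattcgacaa
Msn: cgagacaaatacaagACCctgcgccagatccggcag
Ezr differed from Rdx at 11 of these 36 bases and from Msn at 8, and Rdx differed from Msn at 8. Over the whole transcripts the 3 genes shared 0 windows of 36 bases with each other. A read of that length that matches one exactly therefore does not match another.

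Ezr encodes ezrin (mm9 chr17:6942480-6987129, minus strand, 13 exons, an mRNA of 3070 bases). Values for each layer are listed in the order of brains 1, 2 and 3. Ezr stood at 321.42, 251.71 and 318.96 RPKM in ULAs, compared with 276.70, 254.00 and 248.55 RPKM in DLAs. The ULAs of brains 1 and 3 were above every DLA library, but the ULAs of brain 2 were below the DLAs of brains 1 and 2, so the groups overlapped. The means were 297.4 ± 39.6 RPKM in ULAs and 260 ± 14.9 RPKM in DLAs (SD, n = 3 brains). The log2 difference was 0.19 ± 0.10 (SE), with a 95% interval of -0.04 to 0.41 and an adjusted p of 0.393 by limma, higher in ULAs in 2 of 3 brains. Each of these values rested on 15328 to 26146 reads, so counting error was small beside the spread between brains.

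Rdx encodes radixin (mm9 chr9:51855255-51896843, plus strand, 16 exons, 4842 bases). It gave 20.59, 19.89 and 19.76 RPKM in ULAs, against 22.17, 19.68 and 22.12 RPKM in DLAs. The groups overlapped, with the lowest value of all in the DLAs of brain 2 and the highest in those of brain 1. Radixin mRNA was the steadiest of the 10, with a coefficient of variation over the 6 libraries of 5.62%, and only 2.52% of tested rows had a lower one. Between layers Rdx differed by -0.08 on the log2 scale, with a 95% interval of -0.32 to 0.16 (limma adjusted p = 0.756). A cDNA clone row on the same strand overlapped 3.99% of the Rdx mRNA, and it was at no more than 0.47 RPKM in any library.

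Msn encodes moesin (mm9 chrX:93291384-93363892, plus strand, 13 exons, 3840 bases), which in brain is prominent in endothelial and immune cells. Its levels were 7.52, 6.36 and 8.23 RPKM in ULAs, compared with 5.65, 5.19 and 5.54 RPKM in DLAs. All 3 ULA values lay above all 3 DLA values, a pattern that 6.59% of tested rows had in this direction. The means were 7.37 ± 0.944 RPKM in ULAs and 5.46 ± 0.240 RPKM in DLAs (SD, n = 3). The log2 difference of 0.37 ± 0.13 (SE; 95% interval 0.08 to 0.65) had an unadjusted p of 0.0165 by limma and missed the threshold after adjustment (adjusted p = 0.196). These levels rested on 392 to 844 reads.

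Because moesin is abundant in other cells of the cortex, the markers of those cells stand beside its values. The summed level of 10 microglial markers was 14.0 to 14.9 RPKM in ULAs and 9.14 to 12.3 RPKM in DLAs, of which P2ry12 alone made 11.6 to 12.6 and 7.76 to 10.2 RPKM. The other 9 microglial markers were each under 1 RPKM in every library, and Ptprc and Itgam were at or near 0. The summed level of 8 endothelial markers was 0.75 to 1.32 RPKM in ULAs and 0.44 to 3.15 RPKM in DLAs, with Cdh5 and Kdr at or near 0. The 6 pericyte and smooth muscle markers summed to 16.1 to 23.1 RPKM in ULAs and 11.9 to 19.0 RPKM in DLAs, mostly from Pdgfrb, with Kcnj8 and Myh11 at or near 0. One of them, Rgs5, passed as higher in ULAs, at 1.98, 2.06 and 2.70 RPKM against 1.01, 0.75 and 0.93 RPKM in DLAs (log2 difference 0.77, limma adjusted p = 0.0455, 3 of 3 brains). P2ry12 had a log2 difference of 0.35 with an adjusted p of 0.199 by limma. Both P2ry12 and Rgs5 were higher in ULAs in 3 of 3 brains, like Msn. So were Tmem119, Acta2, Tagln and Myh11, at 1.21 RPKM or less. Pdgfrb had a log2 difference of 0.08 (limma adjusted p = 0.79) and was lower in ULAs in brain 2. C1qa, at 0.77 RPKM or less, was higher in DLAs in 3 of 3 brains, and the remaining markers of these lists were mixed. The part of these markers in the Msn values was not tested. In bulk RNA of sorted cells, fewer cells of a type and less RNA per cell cannot be told apart.

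Since RPKM is per length, each ERM gene can be given as a share of the 3 together within a library. Ezr made 92.0, 90.6 and 91.9% of ERM mRNA in the ULAs of brains 1, 2 and 3 and 90.9, 91.1 and 90.0% in the DLAs. Rdx made 5.89, 7.16 and 5.70% in ULAs and 7.28, 7.06 and 8.01% in DLAs, and Msn made 2.15, 2.29 and 2.37% in ULAs and 1.86, 1.86 and 2.01% in DLAs. Ezr thus ranged from 90.0 to 92.0% of ERM mRNA over the 6 libraries, while the Msn share was higher in ULAs in 3 of 3 brains without overlap. The paired difference, ULAs minus DLAs, was 0.36 ± 0.07 percentage points for Msn (SD, n = 3 pairs), 0.84 ± 1.26 for Ezr and -1.20 ± 1.22 for Rdx. An exact 2-sided permutation test over the 3 pairs cannot go below p = 0.25, which is what Msn reached, and it gave p = 0.5 for Ezr and for Rdx. The summed level of the 3 genes was 325 ± 40.6 RPKM in ULAs and 287 ± 15.6 RPKM in DLAs.

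**Figure D2:**
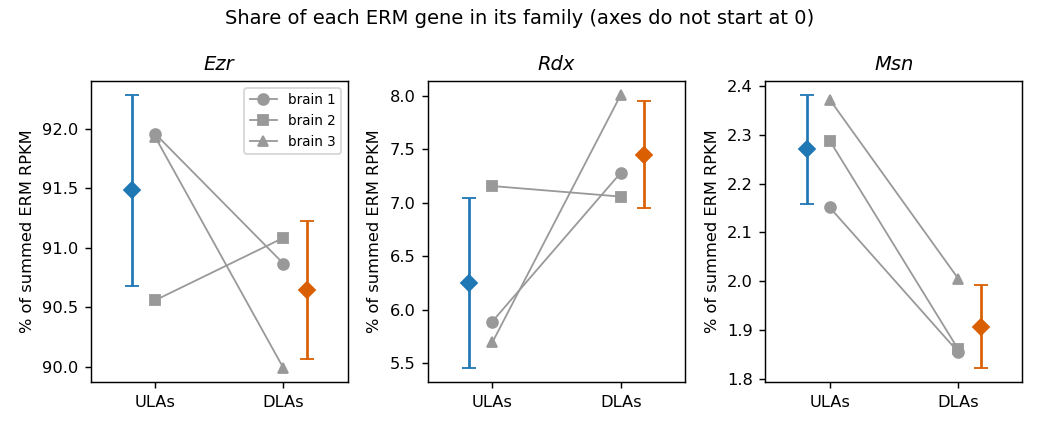
Share of Ezr, Rdx and Msn in their summed RPKM (percent, y axes not starting at 0) in ULAs and DLAs; grey symbols joined by lines are the 2 libraries of a brain, and diamonds with bars are the mean and SD of 3 libraries. The 3 Msn lines run the same way, from 2.15 to 2.37% in ULAs to 1.86 to 2.01% in DLAs, whereas the lines of Ezr and Rdx cross.

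The next pair of genes acts on ERM proteins or beside them. Nf2 encodes merlin, a relative of the ERM proteins that restrains growth through the Hippo pathway (mm9 chr11:4665848-4749547, minus strand, 19 exons, 5298 bases). It gave 6.19, 5.49 and 5.49 RPKM in ULAs, against 5.87, 4.72 and 5.89 RPKM in DLAs. The groups overlapped, and ULAs were the higher in brains 1 and 2 but not in brain 3. Nf2 had a log2 difference of 0.05 with a 95% interval of -0.24 to 0.35 (limma adjusted p = 0.875).

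Slc9a3r1 encodes the scaffold NHERF1, also called EBP50, whose tail binds active ERM proteins and whose PDZ domains hold membrane receptors and transporters (mm9 chr11:115024655-115042492, plus strand, 6 exons, 1922 bases). It gave 264.37, 292.15 and 292.67 RPKM in ULAs, against 255.32, 341.51 and 237.17 RPKM in DLAs. The ULAs lay inside the range of the DLAs, whose brain 2 library was the highest of all 6 and whose brain 3 library was the lowest. Slc9a3r1 had a log2 difference of 0.04 with a 95% interval of -0.21 to 0.29 (limma adjusted p = 0.887). Its paralog Slc9a3r2, which encodes NHERF2, was at 5.63 to 7.21 RPKM in ULAs and 7.56 to 8.26 RPKM in DLAs, and Slc9a3r1 made 97.8 ± 0.261% of the 2 together in ULAs and 97.2 ± 0.400% in DLAs (SD, n = 3).

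Of the small GTPases, Cdc42 starts filopodia, Rac1 drives sheet-like protrusions and Rhoa turns on contraction. Cdc42 (mm9 chr4:136875611-136913674, minus strand, 7 exons, 3004 bases) gave 96.95, 110.60 and 125.98 RPKM in ULAs, against 107.63, 119.15 and 123.53 RPKM in DLAs. The groups overlapped, with both the lowest and the highest value in ULAs. For Cdc42 the log2 difference was -0.08 with a 95% interval of -0.29 to 0.14 (limma adjusted p = 0.736).

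Rhoa (mm9 chr9:108208536-108240270, plus strand, 6 exons, 2126 bases) gave 22.27, 23.33 and 26.00 RPKM in ULAs, against 24.24, 21.19 and 29.90 RPKM in DLAs. The DLAs held both the lowest value, in brain 2, and the highest, in brain 3. For Rhoa the log2 difference was -0.06 with a 95% interval of -0.31 to 0.19 (limma adjusted p = 0.837). The close relatives Rhob and Rhoc were of the same order, so that Rhoa made 36.7 ± 2.63% of the summed RPKM of the 3 in ULAs and 36.0 ± 6.78% in DLAs (SD, n = 3). Rhoc, at 39.1% in ULAs and 39.0% in DLAs, did not differ from Rhoa beyond this spread, and Rhob made 24.2% and 25.0%.

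Rac1 (mm9 chr5:144266349-144288861, minus strand, 6 exons, 2269 bases) varied most among the 10 genes. Its levels were 15.71, 8.65 and 17.61 RPKM in ULAs, compared with 53.08, 8.0 and 43.94 RPKM in DLAs. The DLAs of brains 1 and 3 stood above all other libraries, the DLAs of brain 2 were the lowest of all, and the groups overlapped. DLAs divided by ULAs gave 3.38 in brain 1, 0.925 in brain 2 and 2.50 in brain 3. The coefficient of variation over the 6 libraries was 78.4%, above that of 99.3% of tested rows, whose median was 15.5%. The means were 14.0 ± 4.72 RPKM in ULAs and 35 ± 23.8 RPKM in DLAs (SD, n = 3), on 357 to 3201 reads.

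The log2 difference of Rac1 was -0.96 ± 0.27 (SE; 95% interval -1.55 to -0.36), with an unadjusted p of 0.0049 and an adjusted p of 0.117 by limma, higher in DLAs in 2 of 3 brains. The call turned on single brains. Without brain 2 the difference was -1.48 with an adjusted p of 0.000944, without brain 3 it was -0.80 with an adjusted p of 0.00658, and without brain 1 it was -0.59 with an adjusted p of 0.153. With only the rows that carry a RefSeq accession tested, the adjusted p was 0.0477, and over all alternatives it ran from 0.000944 to 0.607. The depth was 26.6, 19.7 and 29.6 M reads in the DLAs of brains 1, 2 and 3 and 24.4, 25.6 and 26.7 M reads in the ULAs. In the DLAs the summed oligodendrocyte markers were at 176, 203 and 279 RPKM in the same order. The part of depth and of these markers in the Rac1 values was not tested.

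**Figure D3:**
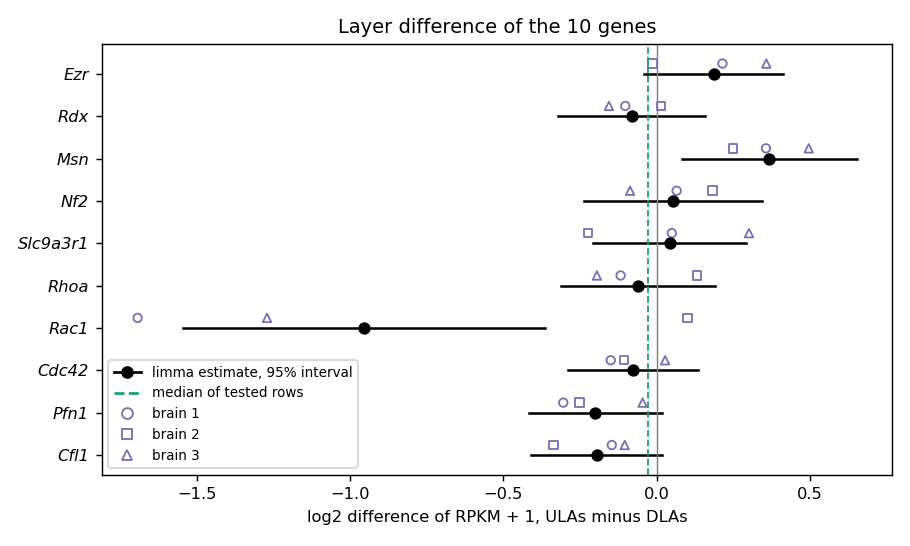
Layer difference of each gene on the log2(RPKM + 1) scale, ULAs minus DLAs; black points with lines are the limma estimate and its 95% interval, open symbols above them the log2 difference of RPKM + 1 in each brain, and the dashed green line the median of all tested rows at -0.03. The intervals of Msn and Rac1 leave out 0 before adjustment, and the open symbols of Rac1 show brain 2 at 0.10 apart from -1.69 and -1.27 in brains 1 and 3.

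The rows whose log2 values followed those of Rac1 most closely over the 6 libraries were then listed, a choice made after its values were seen. Among the 8910 other rows with a mean of at least 5 RPKM, the 5 most alike were Dexi, Nadkd1, Ppp2ca, Suds3 and Tmem65, with Pearson's r of 0.997, 0.997, 0.996, 0.995 and 0.994. These are descriptions of 6 libraries from 3 brains, and 71 of the 8910 rows (0.797%) had an r of at least 0.95. Ppp2ca, a catalytic subunit of the phosphatase PP2A, gave 25.91, 11.64 and 36.41 RPKM in ULAs, against 126.80, 12.17 and 113.93 RPKM in DLAs. Like Rac1, it was high in the DLAs of brains 1 and 3 and low in both libraries of brain 2 (limma adjusted p = 0.0757). In all, 33 of the tested rows (0.236%) were at least 2-fold higher in DLAs in brains 1 and 3 and within 1.5-fold in brain 2. The closest relative of Rac1 with more than trace mRNA, Rac3, was at 3.39 to 6.41 RPKM in ULAs and 4.01 to 5.01 RPKM in DLAs.

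**Figure D4:**
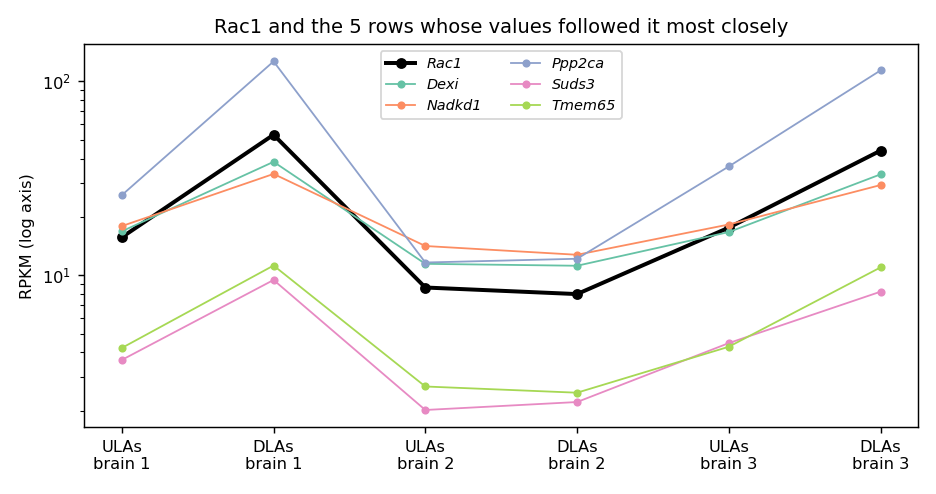
RPKM (log axis) of Rac1, in black, and of the 5 rows with the highest correlation to it, in colours, in the ULAs and DLAs of brains 1, 2 and 3. All 6 lines peak in the DLAs of brains 1 and 3 and are lowest in the libraries of brain 2.

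The last pair of genes handles actin itself. Pfn1 encodes profilin 1, which loads actin monomers with ATP and feeds them to growing filaments (mm9 chr11:70465349-70468152, minus strand, 3 exons, 870 bases). It gave 136.60, 143.55 and 149.37 RPKM in ULAs, against 168.93, 171.03 and 154.18 RPKM in DLAs. All 3 DLA values lay above all 3 ULA values, as they did in 9.27% of tested rows. The means were 143 ± 6.39 RPKM in ULAs and 165 ± 9.18 RPKM in DLAs (SD, n = 3). The log2 difference was -0.20 ± 0.10 (SE; 95% interval -0.42 to 0.02) and did not pass (limma adjusted p = 0.342). The brain-enriched form Pfn2 was the more abundant profilin in these astrocytes, with 68.1 ± 1.51% of summed profilin RPKM in ULAs and 66.7 ± 1.49% in DLAs, against 29.2 ± 1.58% and 30.5 ± 1.72% for Pfn1. The paired difference in share, ULAs minus DLAs, was 1.39 ± 0.32 percentage points for Pfn2 and -1.29 ± 0.33 for Pfn1 (SD, n = 3 pairs). The Pfn2 share was higher in ULAs in 3 of 3 brains and the Pfn1 share in 0 of 3. These differences in share were not tested.

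Cfl1 encodes cofilin 1, which severs old actin filaments until a serine next to its start is phosphorylated (mm9 chr19:5490455-5494031, plus strand, 4 exons, 1184 bases). The first 36 coding bases of the 3 genes of the family, with that serine codon (codon 3) in capitals, are shown because the phosphorylation switch is shared while the surrounding bases differ.
Cfl1: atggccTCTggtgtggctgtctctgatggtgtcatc
Cfl2: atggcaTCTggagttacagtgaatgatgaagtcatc
Dstn: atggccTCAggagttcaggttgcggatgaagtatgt
Cfl1 differed from Cfl2, the form of muscle, at 10 of the 36 bases and from Dstn, which encodes the actin-depolymerizing factor destrin, at 15. The 3 transcripts shared 0 windows of 36 bases. Cfl1 gave 133.85, 139.53 and 149.58 RPKM in ULAs, against 148.21, 176.36 and 160.81 RPKM in DLAs. The DLAs were the higher in each brain, but the ULAs of brain 3 exceeded the DLAs of brain 1, so the groups overlapped. The log2 difference was -0.20 ± 0.10 (SE; 95% interval -0.41 to 0.02; limma adjusted p = 0.347). Cfl1 made 65.8 ± 1.30% of the summed RPKM of its family in ULAs and 66.3 ± 2.78% in DLAs, Dstn made 22.3% and 22.6% and Cfl2 made 11.9% and 11.1%.

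In each brain the summed oligodendrocyte markers given above were higher in DLAs too. For brains 1, 2 and 3 they were 89.7, 86.6 and 178 RPKM in ULAs and 176, 203 and 279 RPKM in DLAs. The log2 differences in the same order were -0.30, -0.25 and -0.05 for Pfn1 and -0.15, -0.34 and -0.10 for Cfl1. The part of these markers in the Pfn1 and Cfl1 values was not tested. Cfl1, Rhoa and Cdc42 share sequence with processed pseudogenes. Of their 36-base windows, 25.6%, 15.8% and 7.67% occur unchanged in other genes of the GENCODE annotation. Reads from these windows may have been counted on either copy or dropped, so the levels of these 3 genes are uncertain by an unknown amount. For Ezr, Rdx, Msn, Nf2, Rac1 and Pfn1 the share was under 1%, and for Slc9a3r1 it was 2.28%.

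The wider pathway was read from 7 lists with 213 genes, of which 169 were tested. One gene passed, Grm3, and it was higher in ULAs, so the count was 1 of 169 higher in ULAs and 0 of 169 higher in DLAs, where 0.714% and 0.914% of all tested rows passed. At an unadjusted p under 0.05, limma put 11 of the 169 above 0 (ULAs) and 10 below it (DLAs), beside 5.64% and 10.8% of all tested rows, and 167 lay within 0.5 of 0 on the log2 scale. The median difference over the 169 genes was 0.02, beside -0.03 over all tested rows.

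The ERM partners and kinases (17 of 21 tested, median 0.11) held the 1 gene that passed. Grm3 encodes the metabotropic glutamate receptor mGluR3, which is no ERM-binding protein itself but is a receptor of thin astrocyte processes. Its ULA values were 463.70, 524.28 and 481.48 RPKM and its DLA values 328.02, 329.12 and 385.99 RPKM. Every ULA library was above every DLA library, and the log2 difference of 0.50 ± 0.10 (SE) had an adjusted p of 0.0401 by limma. The call was lost in 6 of 12 alternatives, with an adjusted p of up to 0.412, and the direction held in all 12. Cd44, a hyaluronan receptor whose tail binds ERM proteins, was at 6.42 ± 0.806 RPKM in ULAs and 3.95 ± 0.868 RPKM in DLAs without overlap, a log2 difference of 0.59 that did not pass (limma adjusted p = 0.115). At the other end of the list, the kinase gene Prkca had a log2 difference of -0.31 (adjusted p = 0.288) and Slc9a3r2 one of -0.28 (adjusted p = 0.322).

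In the list of merlin and the Hippo pathway, 0 of 19 tested genes passed by limma, and the median difference was 0.16. At an unadjusted p under 0.05 there was 1, Cyr61, a secreted protein whose gene is switched on by the coactivators YAP and TAZ, with 41.0 ± 7.63 RPKM in ULAs and 53.4 ± 8.76 RPKM in DLAs (log2 difference -0.37, limma adjusted p = 0.104). Wwtr1, the gene of TAZ, was at 12.3 ± 1.4 and 10.4 ± 1.32 RPKM (0.22, adjusted p = 0.413), and the Hippo kinase gene Stk3 at 15 ± 1.46 and 13.4 ± 1.59 RPKM (0.16, adjusted p = 0.55). Wwc2, of the KIBRA family of upstream regulators, had a difference of -0.14 (adjusted p = 0.59).

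Of the other small GTPases of the list, 0 of 13 tested genes passed by limma, and at an unadjusted p under 0.05 there were 2, both higher in DLAs, with a median difference of -0.08. Rnd2 was the most abundant, at 83.0 ± 13.7 RPKM in ULAs and 90.2 ± 4.63 RPKM in DLAs (-0.13, adjusted p = 0.637). Rnd3, an atypical GTPase, had a difference of -0.34 (adjusted p = 0.223), Rhog one of -0.22 (adjusted p = 0.362), Rhobtb3 one of -0.01 (adjusted p = 0.98) and Rhoj, a relative of Cdc42, one of 0.24 (adjusted p = 0.408). Rnd1 is outside the naming rule, since its mean was under 5 RPKM, and was singled out after its values were seen. It gave 2.41, 1.83 and 3.04 RPKM in ULAs, against 4.76, 3.8 and 4.14 RPKM in DLAs, with no overlap (-0.62, limma adjusted p = 0.083).

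The regulators that switch these GTPases on or off gave 0 of 36 calls by limma, and at an unadjusted p under 0.05 there were 6, each higher in ULAs, a direction in which 5.64% of all tested rows stood. Their median was 0.07. Srgap2, which shuts off Rac1 and bends membranes outward, was at 9.32 ± 0.490 RPKM in ULAs and 7.0 ± 1.49 RPKM in DLAs without overlap (0.38, adjusted p = 0.221). Elmo2, part of a Rac activator, was the most abundant of the list at 87.7 ± 2.77 and 106 ± 16.6 RPKM (-0.25, adjusted p = 0.322), and Arhgdia, which holds small GTPases in the cytosol, had a difference of -0.23 (adjusted p = 0.35).

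Among the effectors of these GTPases, 0 of 39 passed by limma. An unadjusted p under 0.05 was reached by 3 with more mRNA in ULAs and by 4 with more in DLAs, and the median was 0.04. Cdc42ep4 was the most abundant, at 141 ± 7.09 RPKM in ULAs and 167 ± 41.5 RPKM in DLAs (-0.21, adjusted p = 0.424), and its relative Cdc42ep1 had a difference of -0.38 (adjusted p = 0.28). Limk2, a kinase that phosphorylates cofilin, was at 23.0 ± 0.779 and 27.5 ± 3.17 RPKM without overlap (-0.24, adjusted p = 0.322). The formin gene Daam2 and Abi2, of the WAVE complex, had differences of 0.29 (adjusted p = 0.261) and 0.25 (adjusted p = 0.343).

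For actin monomers, filament turnover and branching, 0 of 33 genes passed by limma, and 1, with more mRNA in DLAs, had an unadjusted p under 0.05. The median was -0.08. Pfn2 was the most abundant, at 336 ± 40.3 and 361 ± 14.6 RPKM (-0.11, adjusted p = 0.608). Tmsb4x, which sequesters actin monomers, had a difference of -0.30 (adjusted p = 0.227) and Arpc5l, of the branching Arp2/3 complex, one of -0.22 (adjusted p = 0.384). Enah, an anticapping protein of filopodia, was at 14.6 ± 1.49 and 11.8 ± 2.06 RPKM (0.30, adjusted p = 0.328), and Eps8, which caps and bundles filaments, at 87.4 ± 4.26 and 80.8 ± 1.95 RPKM without overlap (0.11, adjusted p = 0.607).

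Of the bundling proteins, tropomyosins and non-muscle myosin II, 0 of 12 passed by limma, and 1, with more mRNA in DLAs, had an unadjusted p under 0.05. The median was -0.02. The myosin light chains Myl12b and Myl12a had differences of -0.26 (adjusted p = 0.257) and -0.22 (adjusted p = 0.418), with Myl12b at 40.3 ± 5.36 RPKM in ULAs and 48.1 ± 2.76 RPKM in DLAs without overlap. The tropomyosin gene Tpm1 and the bundling protein gene Pls3 had differences of 0.05 (adjusted p = 0.857) and 0.04 (adjusted p = 0.9).

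**Figure D5:**
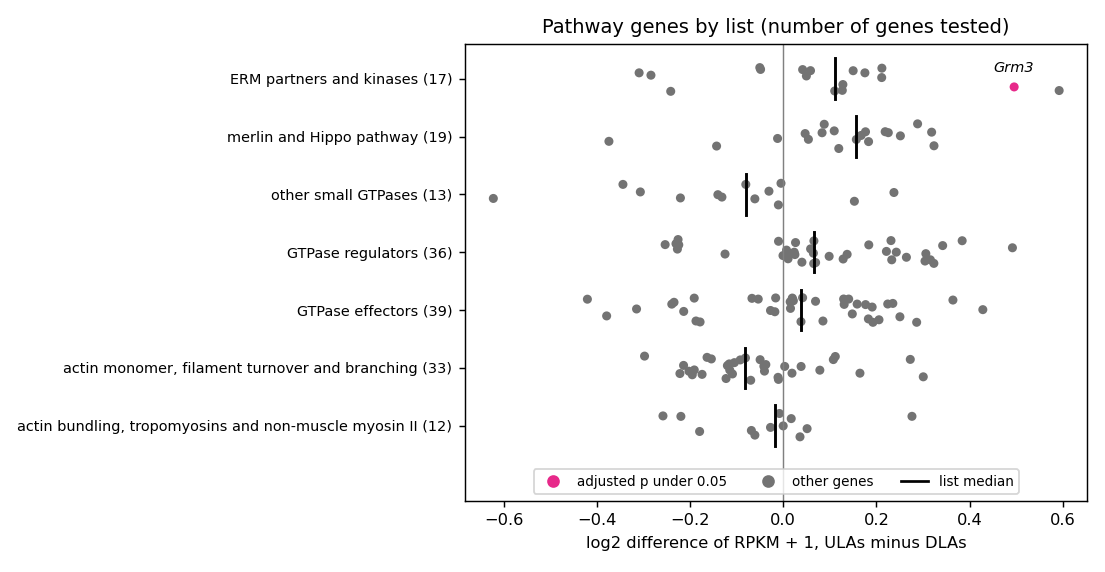
Layer difference of the 169 tested pathway genes on the log2(RPKM + 1) scale, ULAs minus DLAs, by list with the number tested; each point is a gene, spread vertically for legibility, black bars are list medians and the coloured point is the 1 gene that passed, Grm3 at 0.50. The list medians lie between -0.08 and 0.16.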

How the data were processed

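Libraries were made with the SMART-Seq v4 and Nextera XT kits and sequenced on a HiSeq 2500 with 36-base single reads. The authors deposited RPKM values, truncated to 2 decimals, for 43383 rows of 1 symbol each, with positions on mm9 per the labels. The submitters' processing notes name bcl2fastq 1.8.4 and CASAVA 1.8.2, and the counting program is not given in the sources used here. Depth was read from the steps of RPKM in rows of up to 500 bases, where at least 99.95% of values were whole reads, meaning that a whole number of reads gave exactly the printed value once reads per M mapped reads and then RPKM were truncated to 2 decimals, and at most 64.2% at any lower depth. Tests ran on RPKM.

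Libraries with the same replicate number shared their departures from the group means (correlation over rows 0.42, 0.33 and 0.34). For different numbers it was -0.20 to -0.16, which is no separate evidence, since departures from a mean of 3 libraries sum to 0. The study pairs layers by brain, so replicate numbers were read as brains. Rows with a mean of at least 1 RPKM (13999) were compared on log2(RPKM + 1) by limma 3.58.1 under R 4.3.3, using lmFit on layer plus a block for the brain, then trended eBayes, 2-sided, with Benjamini-Hochberg adjustment and a threshold of 0.05. The fit was tested on simulated data. Intervals are at 95%. ERM shares were compared by an exact sign-flip permutation test over 3 pairs.

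The genes and lists were chosen with earlier results of these data known. Pathway genes were named by rule, as those past the threshold and, per list, the most abundant gene and, at a mean of at least 5 RPKM, the 2 with the highest and the 2 with the lowest difference. A gene that this rule names is not reported here. Windows of 36 bases were matched across the transcripts of GENCODE M21 (GRCm38), with no coordinates carried between builds. Tables were made with Python 3.11.15, pandas 2.3.3 and numpy 2.4.6 and figures with matplotlib 3.10.9. The alternatives were no block, a pseudocount of 0.1, no filter, a mean of at least 5 RPKM, each brain left out, quantile normalization, median centring, a length correction (loess of span 0.5), no trend and RefSeq rows only.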

Additional observations from a re-analysis of the deposited data

How the results depend on the processing

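Of 120 values, 10 genes under 12 alternatives, 111 kept their direction and their side of the threshold, 3 passed it (Rac1) and 6 changed sign. A kept direction did not mean a kept size. The difference of Pfn1 went from -0.20 to -0.086 with quantile normalization and to -0.082 with the length correction. That of Cfl1 went from -0.20 to -0.083 and -0.079 in the same order. The difference changed sign for Nf2 to -0.021 with the length correction and for Rhoa to 0.0084 with quantile normalization and 0.0093 with the length correction. With a brain left out it ran from -0.010 (without brain 2) to 0.12 for Nf2, from -0.087 (without brain 3) to 0.18 for Slc9a3r1 and from -0.16 to 0.0078 (without brain 3) for Rhoa. The number of the 10 genes called higher in DLAs was 1 (Rac1) with RefSeq rows only and 0 to 1 with a brain left out. Without the replicate block, which ignores the pairing by brain, Rac1 had an adjusted p of 0.607 and none of the 10 genes passed in limma, and 23 rows in all were called higher in ULAs and 18 higher in DLAs, against 100 and 128 with it. Quantile normalization gave 138 and 103. The counts over all rows were 0 and 0 without the filter on low values (1124 and 1675 at an unadjusted p under 0.05), 65 and 79 without the trend, 154 and 178 with RefSeq rows only, and 77 higher in DLAs with the length correction. With a brain left out they ran from 96 to 431 and from 121 to 695, the highest without brain 3. Of the pathway genes, Grm3 was lost without the block, without the filter, with the length correction and without the trend (0 calls each), 0 to 6 were higher in ULAs and 0 to 5 higher in DLAs with a brain left out, and 1 was higher in DLAs with RefSeq rows only (Rnd1). Without brain 3 the calls were Srgap2, Daam2, Grm3, Trio, Dock1 and Cd44 in ULAs and Rnd1, Cdc42ep1, Elmo2, Cdc42ep4 and Tmsb4x in DLAs. The cause of these changes was not tested. Quantile normalization moved the median of all rows from -0.03 to 0.00. Depth was least for Rac1, Msn, Nf2 and Rhoa, whose lowest libraries held 357, 392, 492 and 886 reads.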

Other observations

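Actin genes of the same pathway with many copies in the genome had unequal levels in the table. Actb was at 84.4 to 140 RPKM over the 6 libraries, whereas Actg1, the other cytoplasmic actin, was at 2.90 to 5.91 RPKM and Tmsb10, a monomer-binding thymosin, was at no more than 0.10 RPKM. The share of 36-base windows found unchanged in other genes was 28.9% for Actb, 56.9% for Actg1 and 50.7% for Tmsb10, and its part in these levels was not tested. Neither Actb (log2 difference -0.01, limma adjusted p = 0.972) nor Actg1 (0.16, limma adjusted p = 0.588) passed the test of a layer difference.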
